A study of Ovis aries with 16 samples.

Results

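The genes described here encode the proteins of the cytosolic ribosome, the particle that translates messenger RNA outside the mitochondria. They were chosen by symbol alone, as RPL or RPS followed by a number (with an optional A, X, Y, L or L1 ending) together with RPLP0, RPLP1, RPLP2 and RPSA, and no measured value entered the choice. The rule took 78 of the 28524 genes in the table. By symbol, 46 of these were assigned to the large subunit and 32 to the small subunit. The gene annotation used here lists RPS28 as a long noncoding RNA and gives no type for RPL26.

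The large subunit joins amino acids into protein, and the small subunit reads the messenger. Nearly every mature ribosome carries a copy of each protein, so cells make these proteins in matched amounts, and their messengers share a pyrimidine-rich start (the TOP motif) through which the growth kinase mTORC1 controls their translation. Many of the genes also carry small nucleolar RNAs (snoRNAs, guides for the chemical modification of ribosomal RNA) inside their introns. In fat, ribosome production is known for its link to insulin and nutrient supply.

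The fat came from female sheep about 21 months old whose mothers were injected under the skin daily between days 30 and 90 of gestation, with term at about 147 days. Control mothers received corn oil alone, and the other mothers received 0.5 mg/kg/day of bisphenol A (BPA), a plastics chemical with oestrogen-like activity, in the same oil. Every animal was then treated alike, with a pair of 10 mg prostaglandin injections 11 days apart to align the cycle, and fat was taken 24 hours after the last. Visceral fat was mesenteric fat beside the rumen and subcutaneous fat was taken over the sternum, and each of the 4 groups (subcutaneous control, subcutaneous BPA, visceral control, visceral BPA) has 4 libraries. Libraries are named here by the number that opens their title, and values are listed by ascending number: subcutaneous controls 902, 924, 928 and 931, subcutaneous BPA 918, 922, 941 and 977, visceral controls 902, 908, 924 and 928, and visceral BPA 910, 918, 977 and 984. The labels do not say whether the libraries of a group come from separate animals or whether lambs shared a mother, so p-values measure the spread between these libraries.

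Library totals lay between 3.05 and 6.22 M counts in subcutaneous fat and between 6.77 and 14.31 M in visceral fat. A given level of a gene therefore rested on more counts in visceral fat. All 8 adipocyte markers had counts in all 16 libraries. Some libraries stood apart in markers of other tissue. Subcutaneous BPA 977 held 985 CPM (counts scaled to library size, on a scale common to the 16 libraries) of skeletal muscle markers against 40.3 to 86.9 in subcutaneous controls, and visceral BPA 977 held the highest sums of lymphocyte (194 CPM) and proliferation markers (74.4 CPM) in its group and the lowest adipocyte sum (14790 CPM). The tissue is a mixture of cells, so fewer cells of a type and less RNA per cell cannot be told apart in any value below.

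Levels of the proteins' messengers differed widely between genes when counted per length, although a ribosome holds most of the proteins in equal numbers. On the RPKM scale (CPM divided by the deposited gene length in kilobases, mean ± SD over 16 libraries), the highest large subunit genes were RPLP2 at 5050 ± 1162 and RPLP1 at 1859 ± 619. These encode the acidic proteins of the stalk, the flexible arm that recruits translation factors and the part of the ribosome that holds more than a single copy of each. RPL31 followed at 788 ± 242 and RPLP0, the base of the stalk, at 771 ± 107. RPL31 and RPLP0 differed by less than their spread. Among small subunit genes with high levels, RPS27A, which is made as a fusion with ubiquitin, measured 911 ± 216. The lowest large subunit genes with at least 1 CPM were the paralogs RPL22L1 at 5.30 ± 1.53, RPL7L1 at 8.855 ± 1.34 and RPL26L1 at 9.77 ± 2.68. The lowest small subunit genes were RPS26 at 38.3 ± 18.7, RPS29 at 49.2 ± 13.95 and RPS27L at 53.8 ± 18.25. Ribosomal protein genes have many near-identical copies in mammalian genomes, and how the deposited counts treated reads that fit several copies is not given in the sources used here, so levels between genes are uncertain. A copy named RPS26_1 lies outside the naming rule and held 9 to 135 counts per library, beside 60 to 946 for RPS26.

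Ribosomal protein genes as a class took from 1.57% to 3.13% of a library's counts. The share of large subunit genes was 1.37, 1.12, 1.36 and 1.85% in the 4 subcutaneous controls and 1.31, 1.03, 1.32 and 1.27% in subcutaneous BPA. It was 1.604, 2.04, 1.31 and 1.67% in visceral controls and 1.65, 1.54, 1.27 and 1.77% in visceral BPA. The groups overlapped in both depots. Small subunit genes took 0.780 ± 0.164% and 0.655 ± 0.0825% in subcutaneous control and BPA libraries, and 0.847 ± 0.192% and 0.809 ± 0.149% in the visceral ones (SD, n = 4 each). Both subunits followed each other closely, and the ratio of large to small subunit counts stayed between 1.77 and 2.14 in the 16 libraries.

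**Figure D1:**
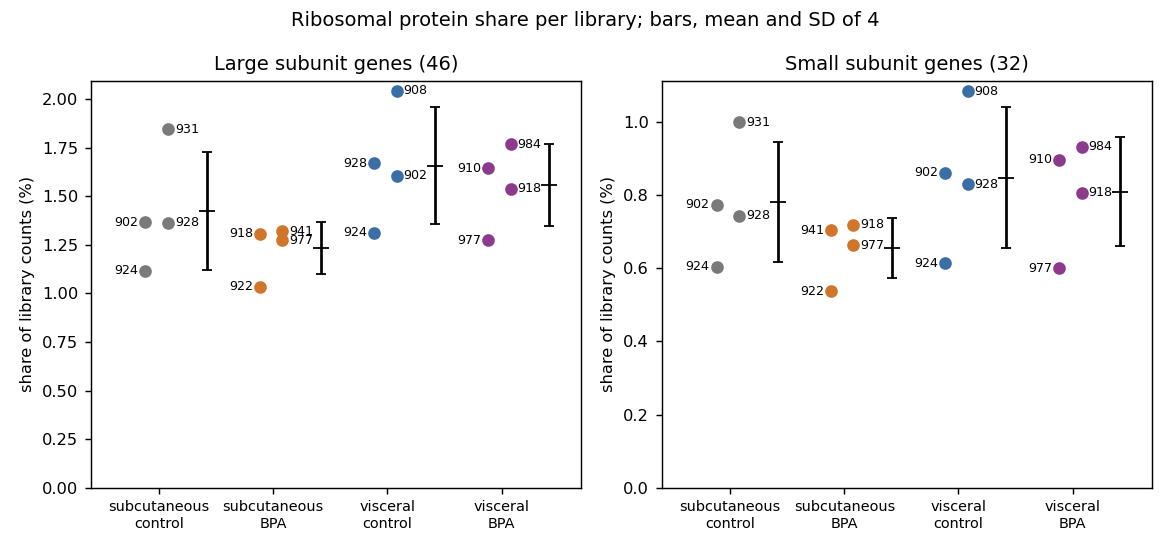
Share of each library's counts (%, vertical axis) taken by the 46 large subunit genes (left) and the 32 small subunit genes (right). Each point is a library with its title number, and bars give the mean and SD of 4. Library 924 is the lowest control in both depots, and 931 and 908 are the highest subcutaneous and visceral controls.

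Most of the variation among these genes ran between libraries of the same group, with the whole class high or low together. In subcutaneous controls, 931 was the highest library for 74 of the 77 genes with enough counts to be tested and 924 the lowest for 72, against 23.8% and 30.3% of all tested genes. In visceral controls, 908 was the highest for 64 and 924 the lowest for 70 (26.7% and 26.9% of all genes). In visceral BPA, 977 was the lowest for 67 (35.4% of all genes), and in subcutaneous BPA, 922 was the lowest for 57 (27.1%). The median ratio of library 931 to 924 in subcutaneous controls was 1.80 for large and 1.77 for small subunit genes and 0.987 for all genes. The ratio of 908 to 924 in visceral controls was 1.69 and 1.66 (0.976 for all genes), and that of 984 to 977 in visceral BPA was 1.63 and 1.70 (1.01). In subcutaneous BPA the ratio of 918 to 922 was lower, at 1.29 and 1.31 (0.997).

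A small number of members did not move with the class. RPS6, the target of the S6 kinases, and the stalk gene RPLP2 were exceptions to the low position of 924 in both depots and of 977 in visceral BPA. The paralog RPL26L1 was an exception to the low position of 924, 924 and 977 and to the high position of 931 and 908. RPLP2 held from 7.44% to 19.1% of all ribosomal protein counts, the highest share being that of visceral BPA 977. The largest spread within groups among tested members was that of RPS3A, with a mean coefficient of variation of 43.6%, then RPS26 (36.6%), RPL37A (36.2%) and RPL10 (35.1%).

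**Figure D2:**
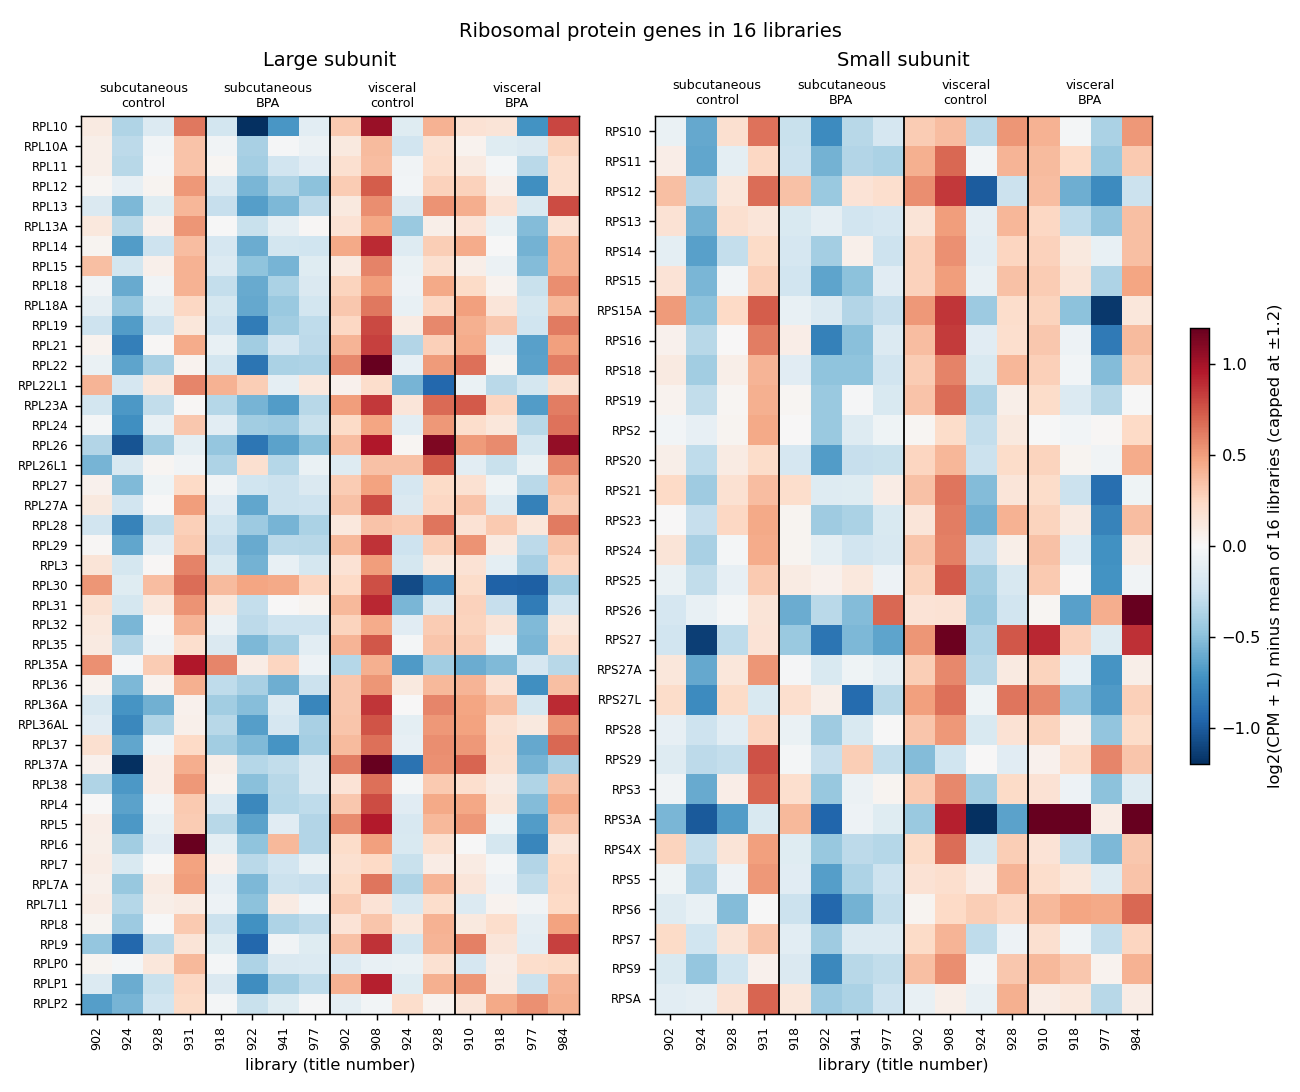
Each row is a ribosomal protein gene with enough counts to be tested (45 large subunit genes left, 30 of the 32 small subunit genes right) and each column a library, ordered by group. Colour gives log2(CPM + 1) minus the gene's mean over the 16 libraries, capped at ±1.2. Columns 924 and 922 are blue and 931 and 908 red in most rows, while RPS3A, RPL30, RPL35A and RPLP2 have patterns of their own.

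In subcutaneous fat, BPA and control ewes were compared to ask whether exposure before birth left a difference in the adult depot. No ribosomal protein gene passed the test: 0 of 77 were called, by edgeR's quasi-likelihood test or by DESeq2, beside 0.709% of all 13535 genes tested. An unadjusted p under 0.05 was found for 11 members with lower estimates and 0 with higher ones, against 7.02% of all genes for lower and 7.21% for higher estimates. The estimates lay below 0 for 71 of 77 members, against 50.8% of all genes, with a median log2 difference of -0.23 for large and -0.23 for small subunit genes and -0.01 for all genes. Without control 931, the library with the highest levels, these medians were -0.06 and -0.11, and without control 924 they were -0.37 and -0.35. The number of members with lower estimates and an unadjusted p under 0.05 was 3 without 931 and 38 without 924.

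RPL12, a protein at the foot of the stalk, had the smallest p. It measured 212, 196, 214 and 299.6 CPM in controls and 187, 143, 163 and 148 CPM in BPA libraries. The groups did not overlap, and the log2 difference was -0.52 ± 0.16 (SE; edgeR adjusted p = 0.190). RPLP0 measured 887, 851, 952 and 1135 CPM in controls and 851, 671, 767 and 769 CPM in BPA libraries, and its highest BPA value lay just under the lowest control (log2 -0.32 ± 0.15, adjusted p = 0.367). These were the 2 members whose BPA libraries all lay below the controls, against 3.18% of all genes.

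Other low estimates came with overlapping groups. RPL10, a protein beside the catalytic centre that joins the subunit late in its assembly, had the lowest estimate of the large subunit (log2 -0.60 ± 0.26, adjusted p = 0.336), from 91.3, 65.7, 75.5 and 132 CPM in controls and 72.9, 36.2, 52.0 and 77.5 in BPA libraries. RPS15A had the lowest of the small subunit (-0.53 ± 0.22, adjusted p = 0.314). RPL15 (-0.50 ± 0.17), RPS4X (-0.49 ± 0.17) and RPL37 (-0.49 ± 0.18) completed the 4 smallest p, with adjusted p of 0.215, 0.224 and 0.271. The 6 members with estimates above 0 were RPS3A (0.46 ± 0.26), RPLP2 (0.16 ± 0.21), RPS25, RPL9, RPL26L1 and RPL30, the last 4 at 0.08 or less.

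Some markers of other cells moved with this comparison. Of 9 macrophage markers, 7 were in the table, and 5 of these lay lower in all BPA libraries than in all controls (sum 217 to 339 CPM against 379 to 539.6). Such a fall without overlap held for 3.18% of all genes. No macrophage marker was at 0. Of the 5 progenitor markers, 2 lay lower in all BPA libraries, and the sum of the 5 was 402 to 546 CPM against 539 to 729.8. So did 1 of the 9 lymphocyte markers in the table lie lower. Of 5 smooth muscle markers, 1 lay higher in all BPA libraries, against 4.27% of all genes. Genes under 200 bases took 0.676 to 1.33% of counts in BPA and 0.355 to 0.459% in control libraries. The part of these differences in the ribosomal protein values was not tested.

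Inside the ribosomal protein genes lie short RNA genes that moved apart from their hosts. The table places 54 genes under 200 bases, most of them snoRNA genes, within the span of 26 members, and apart from an RNA gene on the opposite strand in RPL26L1 they share no exon bases with the host. In subcutaneous fat 12 of the 29 that were tested rose with BPA and 0 fell, against 0.606% of all genes for a rise. All 29 estimates lay above 0, with a median log2 difference of 1.52, and in 20 the groups did not overlap (4.27% of all genes). A gene had enough counts to be tested if a single group reached them, and some of the 29 did so only in BPA libraries. LOC114116240 in RPS12, among those called, measured 0.518 to 1.64 CPM in controls and 3.37 to 12.7 CPM in BPA libraries. The direction, median and overlap count are therefore partly set by this filter. It applied as well to the short RNA genes elsewhere and in visceral fat. Their 26 host genes had 0 calls and a median of -0.28. Of the genes under 200 bases that lie elsewhere, a set counted after seeing the data, 60 of 173 tested rose with BPA and 0 fell, with a median of 1.56. The difference between short RNA genes inside and outside ribosomal protein genes was not tested.

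The snoRNA gene LOC114116239 in RPS12 measured 6.71, 4.66, 5.495 and 6.76 CPM in controls and 38.4, 65.3, 64.9 and 17.8 CPM in BPA libraries. Every BPA library lay above every control, and the rise was 7.89-fold (log2 2.98 ± 0.38, adjusted p = 0.00819), while its host RPS12 had an estimate of -0.14. The snoRNA gene LOC114109485 in RPSA measured 8.11, 11.0, 8.95 and 13.7 CPM in controls and 35.1, 56.7, 73.4 and 33.9 CPM in BPA libraries. It rose 4.79-fold (log2 2.26 ± 0.29, adjusted p = 0.0081), and RPSA had an estimate of -0.41. Summed over the 54 genes, these RNAs took 334 to 519 CPM in controls and 663 to 1383 CPM in BPA libraries. The calls inside ribosomal protein genes depended on the fit: all 16 libraries in 1 edgeR fit gave 4, and limma voom gave 0, with 22 of 32 at an unadjusted p under 0.05 and higher estimates. The number called was 2 without control 924 and 3 without control 902, control 928 or BPA 922, 4 without BPA 941, and 0 with controls 902 and 924 both left out, all chosen after seeing the data. In visceral fat 0 of 34 were called, 32 of 34 estimates lay above 0, and the median was 0.76. Sums there overlapped, at 301 to 583 CPM in controls and 378 to 1097 CPM in BPA libraries. The difference between the depots was called for 0 of 32, with 31 estimates lower in visceral fat.

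**Figure D3:**
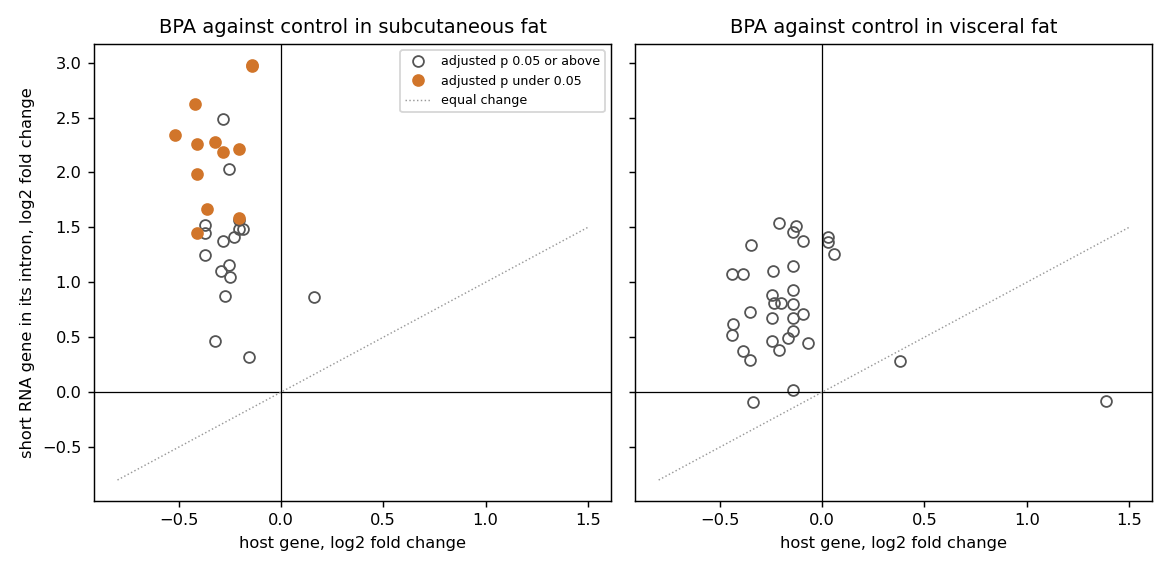
Each point is a short RNA gene inside a ribosomal protein gene, with the host's log2 fold change for BPA against control on the horizontal axis and its own on the vertical axis, in subcutaneous (left) and visceral fat (right). Filled points passed the test. In subcutaneous fat all 29 points, the genes with enough counts to be tested, lie above 0 and most hosts lie below 0. Points of the same host share a horizontal position, and some overlie each other.

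BPA against control in visceral fat gave 0 calls among the 77 members, by edgeR and by DESeq2, and 0% of all 14774 genes were called. The estimates lay below 0 for 66 members (49.7% of all genes), with medians of -0.18 for large and -0.18 for small subunit genes against 0.00 for all genes. Single libraries moved both medians: they were -0.055 and -0.085 without control 908, -0.06 and -0.04 without BPA 977, -0.30 and -0.34 without control 924, and -0.29 and -0.25 without BPA 984. An unadjusted p under 0.05 was found for 4 members with higher estimates and 0 with lower ones, against 5.11% of all genes for higher and 2.36% for lower estimates. These 4 all carried an adjusted p of 0.658.

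RPS3A, a protein of the platform where messenger leaves the small subunit, had the highest estimate. It measured 259.9, 675, 146 and 226 CPM in visceral controls and 885, 888, 377 and 1279 CPM in visceral BPA libraries. Control 908 lay above BPA 977, so the groups overlapped, and the estimate was 2.62-fold (log2 1.39 ± 0.47). RPS29, a zinc-binding protein, measured 11.0, 13.5, 16.2 and 14.6 CPM in controls and 16.8, 18.8, 24.8 and 20.5 CPM in BPA libraries (log2 0.55 ± 0.20). RPS6 measured 166, 191, 199 and 192 CPM in controls and 212, 224, 222 and 262 CPM in BPA libraries (0.30 ± 0.13). In RPS29 and RPS6 every BPA library lay above every control, which held for 2.06% of all genes. RPLP2 measured 2286, 2425, 2877 and 2559 CPM in controls and 2754, 3416, 3635 and 3349 CPM in BPA libraries, with overlapping groups (0.38 ± 0.15). The lowest estimates were those of RPS15A (-0.58 ± 0.34) and RPL37A (-0.48 ± 0.40). Of the 5 endothelial markers, 1 lay lower in all BPA libraries, against 1.96% of all genes. The sum of the 5 was 2222 to 2486 CPM against 2673 to 2890. So did 1 of 5 progenitor markers and 1 of the 8 skeletal muscle markers in the table lie lower, and no marker of the other lists separated the groups. The sum of 5 smooth muscle markers was 442 to 3299 CPM in BPA and 201 to 916 CPM in control libraries. The part of these cells in the values was not tested.

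The comparison of the depots asks how visceral and subcutaneous fat differ. In control ewes, 5 of 77 members rose in visceral over subcutaneous fat and 0 fell, which is 6.49% of members against 7.17% of all 14456 genes for a rise (6.16% for a fall), a share near the background. All 5 belong to the large subunit. The estimates lay above 0 for 64 members, against 49.4% of all genes, with a median log2 difference of 0.35 for large and 0.18 for small subunit genes and -0.01 for all genes. An unadjusted p under 0.05 was found for 18 members with higher and 1 with lower estimates (15.1% and 14.5% of all genes), and in 3 members, all higher, the groups did not overlap (10.2% of all genes for higher, 9.74% for lower). Without subcutaneous control 924 the medians were 0.175 and 0.06, without 931 they were 0.53 and 0.36, without visceral control 908 0.25 and 0.02, and without visceral 924 0.45 and 0.315. The scale of the comparison matters here: with library totals in place of TMM factors the median of all genes was -0.15, those of the subunits were 0.22 and 0.04, and 2 members were called.

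RPL26, which sits at the mouth of the tunnel through which new protein leaves, measured 275, 171, 261 and 324 CPM in subcutaneous and 454, 685, 357 and 763 CPM in visceral controls. Every visceral library lay above every subcutaneous one, at 2.21-fold (log2 1.14 ± 0.26, adjusted p = 0.0174). RPL23A, at the same tunnel mouth and a docking site for factors that receive new protein, measured 259, 187, 245 and 305 CPM in subcutaneous and 427, 546, 335 and 486 CPM in visceral controls. It rose 1.81-fold without overlap (0.86 ± 0.19, adjusted p = 0.0153) and was called in 8 of 8 fits with a library left out. RPL36A (0.83 ± 0.22, adjusted p = 0.0319), RPL19, which bridges the subunits (0.69 ± 0.20, 0.0444), and RPL22 (0.89 ± 0.26, 0.0446) rose with overlapping groups, and each was called in 2 of 8 such fits.

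RPS27, a zinc finger protein, had the highest estimate of the small subunit (0.95 ± 0.32, adjusted p = 0.0761), at 55.7, 29.3, 52.8 and 73.4 CPM in subcutaneous and 94.7, 149.5, 50.4 and 110.5 CPM in visceral controls. RPL35A, a gene of inherited anaemia, had the lowest estimate (-0.74 ± 0.31, adjusted p = 0.135), at 15.3, 10.0, 12.7 and 20.7 CPM in subcutaneous and 7.76, 13.9, 5.96 and 7.33 CPM in visceral controls. RPS29 had the lowest of the small subunit (-0.29 ± 0.27). The count of calls rested on single libraries: it was 10 without subcutaneous control 931 or visceral control 924, 3 without visceral 908, 2 without subcutaneous 902, 924 or 928 or visceral 902, and 1 without visceral 928. With subcutaneous controls 902 and 924 both left out, a choice made after seeing the data, 0 were called and the medians were 0.10 and 0.00.

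Control numbers 902, 924 and 928 occur in both depots, and their libraries deviated together, so they were also compared as 3 pairs. With the pair as a block, 25 members rose in visceral fat and 2 fell, which is 32.5% against 10.1% of all genes for a rise (8.11% for a fall). Of the large subunit 19 of 45 rose, and of the small subunit 6 of 32. Within the pairs 54 of 77 members were higher in visceral fat 3 times of 3, against 26.9% of all genes, and 3 were lower 3 times (26.6%). The median was 0.39 for large and 0.18 for small subunit genes. With pair 902, 924 or 928 left out, alternatives added after seeing the data, 18, 17 and 11 members were called.

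RPL26 had log2 ratios of 0.72, 1.06 and 1.55 in pairs 902, 924 and 928 (block estimate 1.11 ± 0.17, adjusted p = 0.0020). RPS27 had ratios of 0.77, 0.78 and 1.07 (0.88 ± 0.14, adjusted p = 0.00228). The stalk genes split, with RPLP1 (0.58 ± 0.14, adjusted p = 0.0183) and RPLP2 (0.53 ± 0.15, 0.0357) higher and RPLP0 at -0.07 ± 0.14. RPL35A fell in every pair, at -0.98, -0.75 and -0.79 (-0.84 ± 0.22, 0.0248). RPL30, a protein that binds bent RNA and in yeast restrains the splicing of its own messenger, fell at -0.30, -0.97 and -1.21 (-0.81 ± 0.19, 0.0170). RPL22L1 was lower in each pair, at -0.41, -0.45 and -1.33, without passing the test (adjusted p = 0.149).

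**Figure D4:**
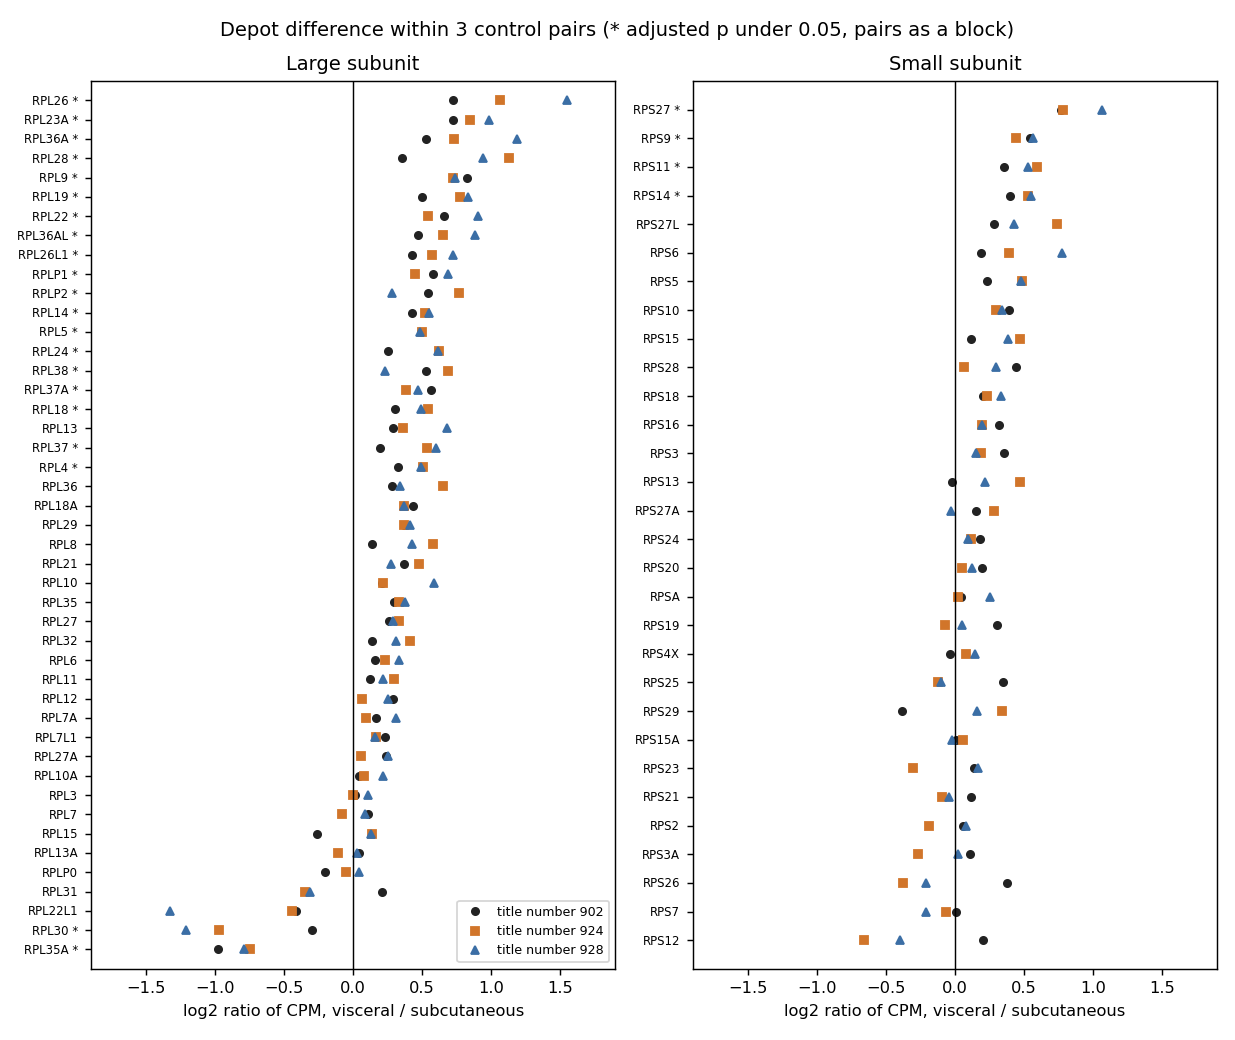
Log2 ratio of visceral over subcutaneous CPM (horizontal axis) within control numbers 902, 924 and 928 (symbols), for 45 large subunit genes (left) and 30 of the 32 small subunit genes (right), ordered by the block estimate. Stars mark the 25 plotted members called with the pairs as a block. Most symbols lie right of 0, and RPL22L1, RPL30 and RPL35A lie left of it in all 3 pairs.

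In BPA ewes, 10 of 77 members rose in visceral fat and 0 fell, which is 13% of members against 5.13% of all 13782 genes for a rise (3.94% for a fall). The called genes were 6 of the large subunit and 4 of the small subunit. The estimates lay above 0 for 68 members (52% of all genes), with medians of 0.38 and 0.305 against 0.02 for all genes. Without visceral 984 the medians were 0.31 and 0.18. An unadjusted p under 0.05 was found for 31 members with higher and 2 with lower estimates (14.6% and 12.3% of all genes). In 12 members every visceral library lay above every subcutaneous one (9.58% of all genes), and in 2 every visceral library lay below (9.03%). The comparison shares no library with that in control ewes.

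RPS6 had the smallest p. It measured 135, 83.6, 109 and 133 CPM in subcutaneous and 212, 224, 222 and 262 CPM in visceral BPA libraries, a rise of 1.99-fold without overlap (log2 0.995 ± 0.18, adjusted p = 0.0111), and it was called in 8 of 8 fits with a library left out. RPS27 measured 47.7, 35.3, 44.6 and 41.8 CPM in subcutaneous and 123, 79.4, 58.7 and 121 CPM in visceral fat (2.25-fold, 1.17 ± 0.24, 0.0171). RPL26 measured 255, 192, 225 and 250.2 CPM in subcutaneous and 501, 521, 304 and 731 CPM in visceral fat (2.23-fold, 1.15 ± 0.24, 0.0180). In all 3 genes the lowest visceral library lay above the highest subcutaneous one. RPS3A rose 2.62-fold from 462, 182, 339 and 319 CPM to 885, 888, 377 and 1279 CPM, where visceral 977 lay below subcutaneous 918 (1.39 ± 0.36, adjusted p = 0.0384).

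The other called members rose by less. RPL28, which yeast ribosomes lack, rose by 0.72 ± 0.16 on the log2 scale (adjusted p = 0.0201) and RPL36AL, the paralog of RPL36A, by 0.73 ± 0.17 (0.0244). RPS9, at the entry of the messenger channel, rose by 0.68 ± 0.17 (0.0350), RPL36A by 0.90 (0.0407), RPL13 by 0.79 (0.0430) and RPL19 by 0.75 (0.0490). RPL26, RPL36A and RPL19 were called in both the control and the BPA comparison of depots. RPL30 and RPL35A again had the lowest estimates, without passing the test. RPL30 measured 41.9, 44.8, 44.3 and 38.4 CPM in subcutaneous and 37.4, 15.9, 15.8 and 23.8 CPM in visceral libraries (-0.87 ± 0.27, adjusted p = 0.0663). RPL35A measured 15.7, 10.9, 12.3 and 9.66 CPM in subcutaneous and 6.37, 6.73, 8.70 and 7.84 CPM in visceral libraries (-0.71 ± 0.25, 0.0950). These are the 2 members whose visceral BPA libraries all lay below the subcutaneous ones.

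Here too the count of calls rested on single libraries. It was 33 without visceral 977, the library that was lowest for most members, 5 without subcutaneous 918 or visceral 910 or 918, 4 without visceral 984, 3 without subcutaneous 941 or 977, and 1, RPS6, without subcutaneous 922. DESeq2 called 22 higher and 1 lower. Other cell types moved with depot. All 7 mesothelial markers were in the table, and their sum was 1.86 to 9.05 CPM in subcutaneous and 29.9 to 283 CPM in visceral libraries, with MSLN, LRRN4, KRT19 and WT1 among those at 0 in some subcutaneous library. The adipocyte sum was 10810 to 21350 CPM in subcutaneous and 20430 to 29430 CPM in visceral controls, and 13890 to 22510 and 14790 to 25580 CPM in BPA libraries. Endothelial sums were 1638 to 2666 CPM in subcutaneous and 2673 to 2890 CPM in visceral controls. In BPA libraries they were 1481 to 2255 and 2222 to 2486 CPM. Macrophage sums in BPA ewes were 217 to 339 CPM in subcutaneous and 333 to 594 CPM in visceral libraries. Those in controls were 379 to 539.6 and 391.5 to 622 CPM, so macrophage sums overlapped in both treatments. Progenitor sums went the other way, at 539 to 729.8 CPM in subcutaneous and 388.5 to 475 CPM in visceral controls. In BPA libraries progenitor sums were 402 to 546 and 352 to 405 CPM. Visceral libraries were also deeper. The part of these in the depot values was not tested.

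**Figure D5:**
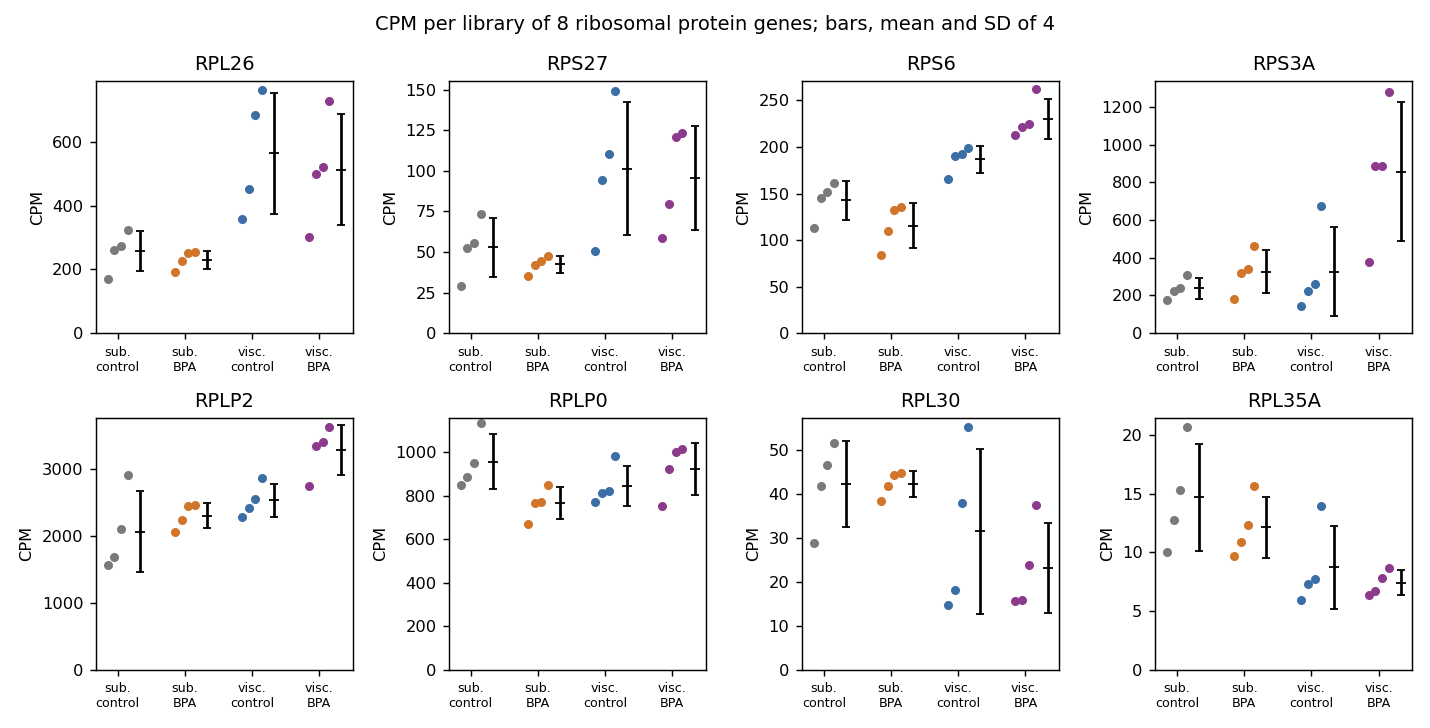
CPM per library (vertical axes, each from 0) of 8 ribosomal protein genes in the 4 groups, with bars for the mean and SD of 4. RPL26, RPS27 and RPS6 lie higher in visceral fat in both treatments apart from overlaps named in the text, RPL30 and RPL35A lie lower there in BPA libraries, and RPS3A is highest in visceral BPA, with 1 library at 377 CPM.

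The test of whether the BPA effect differed between the depots called 0 of 77 members and 0% of all 14793 genes. The estimates lay above 0 for 50 members (51.9% of all genes), with medians of 0.07 for large and 0.14 for small subunit genes beside 0.02 for all genes. The sign of these medians rested on single libraries, at -0.08 and -0.025 without subcutaneous control 931, -0.05 and -0.01 without visceral control 924, and 0.20 and 0.28 without visceral BPA 977. The large subunit median was also below 0 without subcutaneous BPA 922 (-0.02) or visceral BPA 984 (-0.05). An unadjusted p under 0.05 was found for 2 members with higher and 0 with lower estimates, against 4.4% and 1.8% of all genes. These were RPS6, with a log2 difference between effects of 0.61 ± 0.22 (edgeR adjusted p = 0.718), and RPLP0, at 0.45 ± 0.20 (adjusted p = 0.793). RPS6 had an estimate of -0.30 ± 0.18 in subcutaneous and 0.30 ± 0.13 in visceral fat, and RPLP0 of -0.32 ± 0.15 and 0.13 ± 0.16. RPS29 (0.69 ± 0.35) and RPS20 (0.39 ± 0.24) came next, and RPS3A had the highest estimate (0.94 ± 0.59).

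Members known for roles outside translation gave no call in the BPA comparisons. RPL5 and RPL11, which with the 5S RNA hold back the p53 regulator MDM2 when ribosome assembly fails, had log2 estimates for BPA of -0.29 ± 0.20 and -0.21 ± 0.16 in subcutaneous and -0.39 ± 0.29 and -0.18 ± 0.16 in visceral fat. Between the depots RPL5 rose in visceral fat in the block comparison of control pairs, with log2 ratios of 0.495, 0.50 and 0.49 (0.50 ± 0.13, adjusted p = 0.0233), and RPL11 did not pass there (0.22 ± 0.13, 0.284). Without the block RPL5 was not called in control (0.55 ± 0.25, adjusted p = 0.172) or BPA ewes (0.45 ± 0.24, 0.250). RPS27A had a BPA estimate of -0.19 ± 0.21 in subcutaneous and -0.27 ± 0.24 in visceral fat. RPSA, also known as the laminin receptor precursor, had -0.41 ± 0.20 and -0.09 ± 0.17, and depot estimates of -0.10 ± 0.20 in control and 0.22 ± 0.18 in BPA ewes. RPLP1 had BPA estimates of -0.23 ± 0.20 and -0.23 ± 0.25.

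Paralogs are extra gene copies that can take the place of a ribosomal protein in some cells. RPL3L, the form of RPL3 in striated muscle, had too few counts to be tested: 0 or 1 per subcutaneous library and 0 to 10 per visceral one, and subcutaneous BPA 977, with the highest muscle marker sum, held 1. RPL22L1 measured 8.42, 5.18, 6.75 and 9.63 CPM in subcutaneous and 6.34, 7.20, 3.80 and 2.69 CPM in visceral controls, while its parent RPL22 rose in visceral fat there. The depot estimates in control ewes were -0.57 ± 0.35 for RPL22L1 (adjusted p = 0.294) and 0.89 ± 0.26 for RPL22, and the difference between both genes was not tested. In BPA ewes they were -0.34 ± 0.28 and 0.69 ± 0.27. Over the 16 libraries, the genes whose log2 levels followed RPL22L1 most closely were ATRAID (Pearson r = 0.817), RPL30 (0.780) and BTF3 (0.777), a description over libraries that share depot and depth.

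The remaining paralogs had depot estimates above 0, of which, without the block, that of RPL36AL in BPA ewes passed the test. RPL26L1 had a depot estimate of 0.56 ± 0.22 in control ewes (adjusted p = 0.115) and 0.21 ± 0.24 in BPA ewes, beside 1.14 and 1.15 for RPL26. RPS27L, a gene that p53 switches on, had 0.56 ± 0.24 (0.146) and 0.21 ± 0.33, beside 0.95 and 1.17 for RPS27. RPL36AL had 0.69 ± 0.22 and 0.73 ± 0.17, close to RPL36A at 0.83 and 0.90. RPL7L1 had 0.17 ± 0.19 and 0.14 ± 0.22, beside -0.03 and 0.14 for RPL7. In the edgeR block comparison of control pairs, RPL36AL (0.67 ± 0.14, adjusted p = 0.00898) and RPL26L1 (0.58 ± 0.17, 0.0408) rose in visceral fat. RPS27L (0.48 ± 0.16, 0.063) and RPL7L1 (0.19 ± 0.20, 0.535) did not pass there. For BPA against control, 0 of these 5 tested paralogs were called in either depot.

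Other genes of the pathway are given from lists set by function. RACK1 and FAU, ribosomal proteins that the naming rule misses, were not called in any comparison. Among translation factors, 7 of 39 rose in visceral fat of control ewes and 6 of 39 in BPA ewes, with 0 falls, against 7.17% and 5.13% of all genes. EIF5B, which joins the subunits, rose from 218 ± 41.5 to 426 ± 34.9 CPM in control ewes (SD, n = 4; log2 0.98 ± 0.15, adjusted p = 0.00335) and by 0.81 ± 0.14 in BPA ewes (0.00902). EIF4EBP1, the mTORC1-controlled brake on cap-dependent translation, rose 3.40-fold in BPA ewes, from 45.3 ± 8.38 to 155 ± 52.3 CPM (adjusted p = 0.00497). In control ewes it measured 40.4 ± 29.0 CPM in subcutaneous and 137 ± 43.9 CPM in visceral fat. EEF1D, part of the exchange factor for elongation, rose by 0.90 ± 0.18 in control ewes (0.0101).

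Of 42 ribosome assembly genes 3 rose in visceral fat of control ewes (NPM1, NCL and NMD3) and 3 in BPA ewes (NCL, NPM1 and FBL), and 0 fell. That is 7.14% in each, against 7.17% and 5.13% of all genes, a share near the background. NCL, the nucleolar protein nucleolin, rose from 246 ± 53.1 to 398 ± 57.5 CPM in control ewes (adjusted p = 0.0277) and from 286 ± 17.2 to 523 ± 83.5 CPM in BPA ewes (0.0125). NPM1, a nucleolar chaperone, rose 1.86-fold (0.0275) and 1.96-fold (0.0215). Mitochondrial ribosomal proteins, a separate family, had 7 of 73 rises in control and 3 of 73 in BPA ewes and 0 falls, which is 9.59% and 4.11%, also near the background. MRPL34 rose 2.22-fold (0.00384) and 2.13-fold (0.0130). Of 19 tested genes that control ribosomal protein synthesis, among them mTORC1 and S6 kinase genes, 0 passed in either depot comparison. For BPA against control 0 genes of these lists were called in either depot. In subcutaneous fat the translation factors had a median estimate of -0.12 and the assembly genes of 0.20, beside -0.01 for all genes, and in visceral fat -0.08 and 0.23 beside 0.00.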

How the data were processed

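RNA was sequenced after removal of ribosomal RNA, with libraries from a SMARTer low-input kit, per the labels' protocols. The submitters' processing notes name STAR 2.6.0c for alignment, featureCounts (Subread 1.6.1) for counting, and FastQC 0.11.5 with MultiQC 0.9 for quality. Neither build, annotation nor strand setting is given in the sources used here, so no positions are printed. The deposit is named as normalized counts, but 0 values are not whole and library totals differ (3046126 to 14305764). The values were therefore treated as raw counts per gene. CPM and RPKM were computed here from them and the deposited gene lengths, on TMM-scaled totals. Reads from genes that overlap on opposite strands (as at RPS6, RPL12, RPS14 and RPS9) cannot be told apart without the strand setting. Nearly all short RNA genes inside members lie on the host's strand and share no exon bases with it. Where host RNA still holds the intron, its reads there cannot be told from those of the short RNA by strand.

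Genes were filtered (filterByExpr, 10 counts at the median depth, 15 in total) and tested over the whole table with edgeR 4.0.16 in R 4.3.3 (glmQLFit and glmQLFTest, two-sided, 8 libraries per comparison, 16 for the difference of effects), with Benjamini-Hochberg adjustment and calls under 0.05. Each SE is the estimate over the square root of the test's F. The pipeline was tested on simulated data. Exact tests of 4 against 4 libraries cannot go below p = 0.0286 and were not used.

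Same-numbered libraries of both depots were checked by the correlation of their deviations from group means over 14793 genes. It was 0.271, 0.417 and 0.340 for control numbers 902, 924 and 928, and each library matched the one of its own number best, so these 3 were treated as pairs. For BPA numbers 918 and 977 it was 0.172 and -0.005. The libraries of 918 matched each other best and those of 977 did not, and neither number was treated as a pair.

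Genes are named by rule: called members, the 4 smallest p and the highest and lowest estimate per comparison, the extremes of level, the stalk genes, RPSA, RPS6, RPS27A, RPL5, RPL11, the paralogs, the most variable members and up to 3 per pathway list. RPS25, RPL9, RPL36AL and other members named to complete a count were chosen after their values were seen, as were the short RNA genes. The members, gene lists, tests and alternatives were chosen with earlier results of these data known. A list of 14 snoRNA host names had 0 tested genes under those names and is not used. A few genes are counted but not reported here by name. Alternatives were the DESeq2 1.42.0 test and size factors, library totals, TMM factors without ribosomal protein genes, other filters, a threshold of 0.10, all 16 libraries, limma 3.58.1 voom, a block for the pair, and each library left out in turn.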

Additional observations from a re-analysis of the deposited data

Results flagged for a closer look

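A value was singled out where 1 library of a group of 4 lay so far from the other 3 that its gap to the nearest, over the whole range, exceeded the critical value of Dixon's ratio. Chance gives about 5% of groups such a value, and 316 groups were examined.

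Most of the low values belong to subcutaneous BPA 922. RPS7 measured 202 CPM there against 242 to 249 in the other 3 libraries, and RPL9 150.7 CPM against 262 to 281. RPL14 measured 200.5 CPM against 257 to 263, RPL29 172 CPM against 208 to 216 and RPL10A 105 CPM against 132 to 137. The share of large subunit genes in this library was 1.03% of counts, against 1.27 to 1.32%.

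In the other libraries RPS26 measured 42.0 CPM in subcutaneous BPA 977 (others 16.7 to 20.3) and RPS29 28.1 CPM in subcutaneous control 931 (others 12.8 to 14.35). RPS13 measured 33.5 CPM in subcutaneous control 924 (others 55.5 to 57.3), and RPL7L1 10.2 CPM in the same library (others 13.8 to 14.1). RPSA measured 199 CPM in visceral BPA 977 (others 267 to 275) and RPS2 897 CPM in visceral BPA 984 (others 743 to 766).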

How the results depend on the processing

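Counts of calls in the BPA comparisons and in the difference between depots were 0 under each alternative that was run, each library left out included. In control ewes, against 5 calls, the DESeq2 test gave 11, library totals 2, voom with replicate block 12, edgeR with replicate block 27 (18, 17 and 11 with pair 902, 924 or 928 left out), a threshold of 0.10 12, omission of controls 902 and 924 together 0, and omission of each library 1 to 10. In BPA ewes, against 10 calls, the DESeq2 test gave 23, a threshold of 0.10 23, edgeR with replicate block 3, and omission of each library 1 to 33. The BPA numbers were not both shown to be pairs, and with that block the medians were 0.00 (-0.004) for large and -0.07 (-0.065) for small subunit genes.

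For the short RNA genes inside members in subcutaneous fat, against 12 calls, DESeq2 gave 22, all 16 libraries in 1 fit 4, voom 0 with replicate block and 0 without, omission of controls 902 and 924 together 0, and omission of each library 2 to 13; these alternatives were chosen after seeing the data. The cause of these shifts was not tested. Over all alternatives of the 15 called differences of single members, 202 values kept the call, 88 lost it and 0 changed sign. The losses include 9 of 15 with the edgeR replicate block, 7 of 15 with library totals and 5 of 5 without controls 902 and 924. All 9 losses with the block were calls in BPA ewes, and the 5 calls in control ewes stayed. Medians moved by less than the spread between libraries in all alternatives but the block in BPA ewes. Members with few counts, such as RPL22L1 with 19 to 54 per subcutaneous library, are limited by depth.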
